A study of Rattus norvegicus with 12 samples.

Results

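The comparison described here sets the 6 Grin3a knockdown libraries of cultured rat hippocampal neurons against the 6 control libraries, over both activity states, across 10689 genes. All 12 libraries of the series enter it. The knockdown groups are KD_TTX, held in tetrodotoxin (TTX), and KD_TTXwd, collected 6 h after TTX withdrawal. The control groups are Ctrl_TTX and Ctrl_TTXwd, handled in the same way, with 3 libraries in each of the 4 groups. Neurons came from CD (Sprague Dawley) rat embryos of both sexes late in gestation and were collected after 7 days in vitro. Lentivirus was added on day 1, carrying 1 hairpin against Grin3a in the pLKO.1 vector or the empty vector, and every culture received 1 µM TTX on day 5, for 48 h. The labels name the empty vector as control, whereas the deposited columns of the control libraries are headed scr, and which of these the control was cannot be told from the sources used here. If it was the empty vector, effects of any hairpin and of this hairpin cannot be told apart. The labels do not say whether the libraries of a group came from separate cultures, so a p-value covers only their spread, which may be technical.

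GluN3A, the protein of Grin3a, is a subunit of NMDA-type glutamate receptors that binds glycine. Receptors that hold it pass less calcium and are less blocked by magnesium than those of GluN1 and GluN2 alone, and GluN3A is most abundant in the young brain, where it holds back the maturation of synapses. TTX blocks voltage-gated sodium channels and silences action potentials, and its withdrawal lets firing resume. Averaging over the silent and the reactivated state gives the mean difference with the knockdown. A change in a single state can also move this average, so genes shifted alike in both states were sought separately. The hairpin is shown because the whole contrast rests on this one sequence, as the labels give it for Grin3a (chromosome 5). Its site in the transcript was not located here, and other transcripts were not searched for it.
Grin3a shRNA: gctccatgacaagtggtacaa

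Levels are the authors' FPKM (fragments scaled to transcript length and to the size of the library), and differences are knockdown minus control on the log2(FPKM + 1) scale, which understates the change of genes with low levels. The FPKM of the genes kept summed to between 428070 and 517703 per library. The number of reads is not given in the table, so the counting error of a value is unknown. Ctrl_TTX replicate 1 and Ctrl_TTXwd replicate 3 stood apart, with a mean correlation to their own group of 0.909 and 0.911, against 0.928 to 0.978 for the other libraries. Markers of glutamatergic neurons, astrocytes and microglia were all present. The summed FPKM of 14 glutamatergic neuron markers was 1408, 1181 and 1210 in KD_TTX, against 1770, 1641 and 1655 in Ctrl_TTX. After withdrawal the same sum was 788, 945 and 681 in KD_TTXwd, against 772, 1019 and 353 in Ctrl_TTXwd. The sum of 15 microglia markers was 777, 610 and 214 in KD_TTX, 972, 491 and 244 in Ctrl_TTX, 517, 59.3 and 696 in KD_TTXwd, and 922, 132 and 2275 in Ctrl_TTXwd. Microglial RNA thus varied widely within every group, and Ctrl_TTXwd replicate 3 held the most of it and the least glutamatergic RNA. The glutamatergic sum was lower in all KD_TTX than in all Ctrl_TTX libraries and overlapped after withdrawal, and the part of cell makeup in the gene differences was not tested. In these bulk libraries, fewer cells of a type and less RNA per cell cannot be told apart.

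Grin3a itself (chromosome 5, 69420057 to 69564696, in the coordinates of the deposited table, build rn5 per the submitters' processing notes) had 9.30, 6.01 and 4.77 FPKM in KD_TTX, against 18.6, 18.2 and 23.0 FPKM in Ctrl_TTX. After withdrawal it had 5.22, 3.32 and 2.50 FPKM in KD_TTXwd, against 13.8, 19.8 and 4.88 FPKM in Ctrl_TTXwd. The groups did not overlap in TTX, and after withdrawal Ctrl_TTXwd replicate 3 lay inside the knockdown range. The knockdown libraries averaged 5.19 ± 2.39 FPKM and the control libraries 16.4 ± 6.37 FPKM (SD, n = 6 each), so that 31.7% of the control level was left. The averaged log2 difference was -1.45 (SE 0.28), the lowest of all genes tested, and nearly equal in TTX (-1.48) and after withdrawal (-1.42). An exact two-sided permutation test within states gave p = 0.01, where the smallest possible is 0.005, whereas limma over all genes gave a Benjamini-Hochberg adjusted p of 0.149. Without Ctrl_TTXwd replicate 3, the difference was -1.69 and the adjusted p 0.0341.

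The averaged comparison did not call Grin3a and called a single gene, Ipo9, which encodes importin 9, a carrier of cargo proteins into the nucleus. Ipo9 (chromosome 13, 57258617 to 57305942) had 33.1, 30.6 and 30.9 FPKM in KD_TTX, against 44.6, 49.1 and 52.1 FPKM in Ctrl_TTX. It had 25.4, 24.6 and 23.6 FPKM in KD_TTXwd, against 43.3, 47.7 and 41.5 FPKM in Ctrl_TTXwd. All 6 knockdown libraries lay below all 6 control libraries, and the libraries that stand apart kept to their groups. The log2 difference was -0.71 (SE 0.09), or 39.0% lower, with an adjusted p of 0.0489 by limma with activity state as an additive factor. Leaving out any single library other than KD_TTX replicate 1 or Ctrl_TTX replicate 1 ended the call, with adjusted p from 0.0599 to 0.305. So did the replicate number as a block (0.0954), or as a block within each state (0.105). It held in 7 of 26 alternative settings, while the difference stayed between -0.78 and -0.67 in all of them.

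No gene was called higher, and the 1 call amounts to 0.00936% of the genes tested. At an unadjusted p below 0.05 there were 357 genes lower with knockdown (3.34%) and 265 higher (2.48%), together 5.82%. The averaged difference had a median of -0.019 over all genes. Within the states, limma called 0 genes in TTX, with 412 at an unadjusted p below 0.05, and 1 gene after withdrawal, with 1276 at that level. The gene called after withdrawal was Rhob, which encodes a small GTPase of the cytoskeleton. It had 133, 115 and 136 FPKM in KD_TTX and 73.3, 64.1 and 67.3 FPKM in KD_TTXwd, against 164, 190 and 198 FPKM in Ctrl_TTX and 176, 156 and 165 FPKM in Ctrl_TTXwd. Rhob was lower with knockdown in both states without overlap, but by unequal amounts, -0.52 in TTX and -1.27 after withdrawal (adjusted p 0.0167 there). Its averaged difference of -0.89 (SE 0.14) had an adjusted p of 0.10. Without both libraries that stand apart, an alternative added after the data were seen, 99 genes were called lower and 23 higher, Rhob, Ipo9 and Grin3a among those lower.

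**Figure D1:**
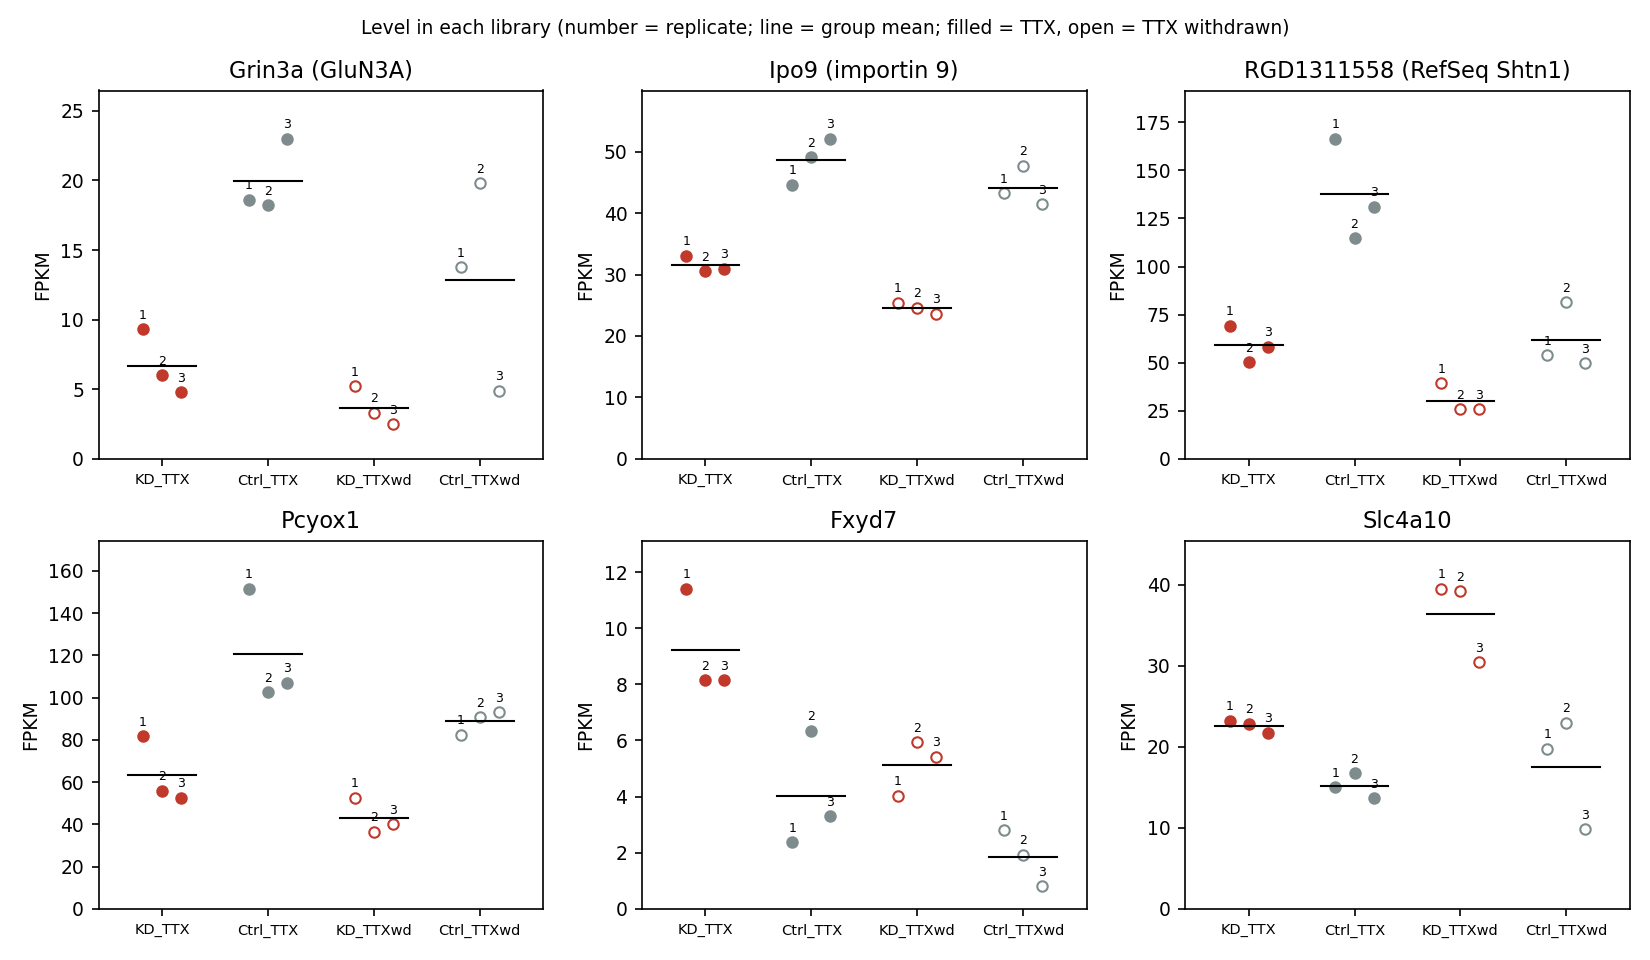
FPKM (linear axes from 0) of 6 genes in each of the 12 libraries, red for knockdown and grey for control, filled in TTX and open after withdrawal. Numbers are replicates and lines are group means. Ipo9, RGD1311558, Pcyox1, Fxyd7 and Slc4a10 do not overlap between knockdown and control in either state, whereas Ctrl_TTXwd replicate 3 lies at 4.88 FPKM of Grin3a, among the KD_TTXwd libraries.

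Genes shifted alike were taken as those whose knockdown and control libraries do not overlap in either state, with the same sign in both and a smaller difference at least 0.5 times the larger. There were 91 such genes (0.851%), 61 lower (0.571% of those tested) and 30 higher (0.281%) with knockdown. Since the rule uses these same differences, they are given as a description. Clta, which encodes a clathrin light chain, was just inside the size limit at a ratio of 0.501, and Cpne4 just outside at 0.498. Without the size limit 124 genes (1.16%) kept the same direction in both states, 74 lower and 50 higher, while 148 (1.38%) were apart in both states in opposite directions. Groups were apart in TTX for 11.8% of genes, 845 lower and 421 higher with knockdown. After withdrawal they were apart for 19.8%, 965 lower and 1154 higher. Genes apart in both states arise from such rates even where the states are unrelated. Whether the 124 or the 91 genes exceed that number was not tested, so they are not read as a shared response. Quantile normalization gave 40 lower and 47 higher genes shifted alike, so the excess of lower ones depends on the scaling. The deposited genes also look selected by a control library, since none lies below 1.00 FPKM in Ctrl_TTX replicate 1. Lypd2, 1 of the lower genes, reached 1 FPKM only in control libraries and so passed the filter through them. The part of this selection in the excess of lower genes was not tested.

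**Figure D2:**
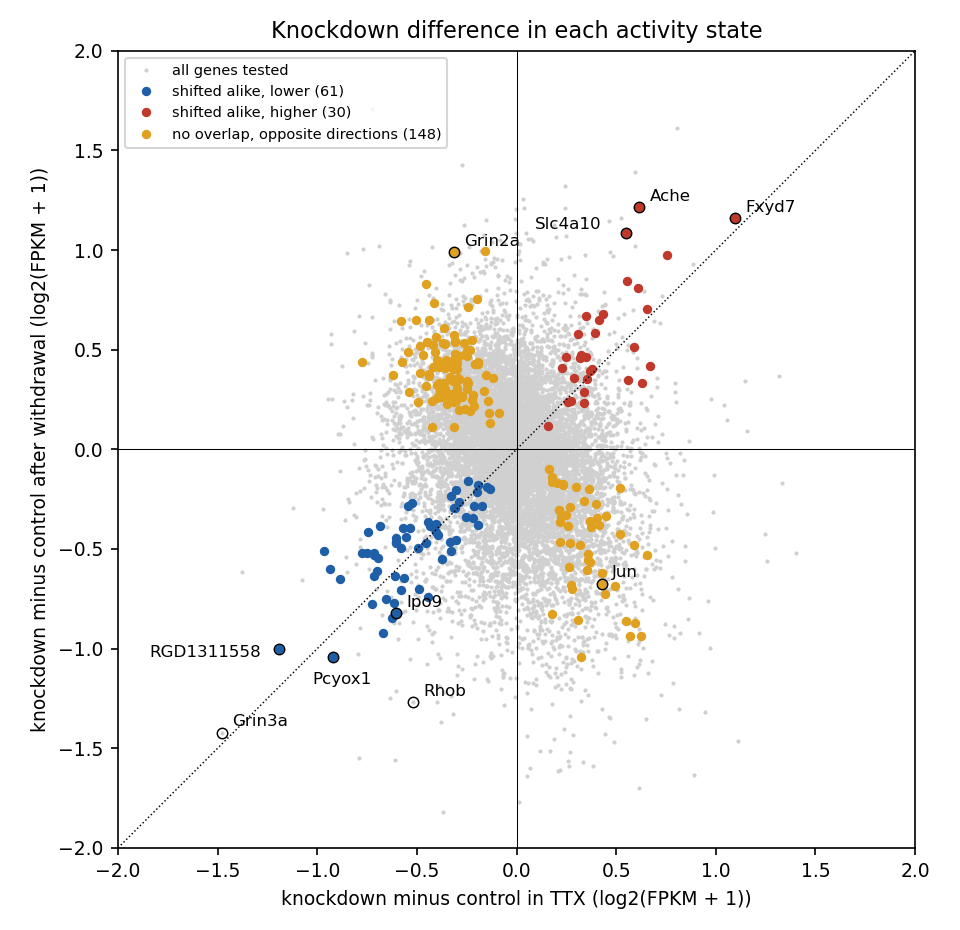
Knockdown minus control in TTX (x axis) and after withdrawal (y axis), in log2(FPKM + 1), for the 10689 genes tested, with the 61 lower and 30 higher genes shifted alike and the 148 that moved oppositely in colour. The dotted line marks equal differences. Grin3a, RGD1311558 and Pcyox1 lie near the line below 0 and Fxyd7 near it above 0, and the cloud as a whole leans the other way.

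Across all genes the differences of the 2 states did not run together. They had the same sign for 4388 genes (41.1%), and across genes, which are not independent replicates, Pearson's r was -0.196 and Spearman's rho -0.224. The states share no library. The test of the difference between states called 0 genes, with 9.82% at an unadjusted p below 0.05. Without Ctrl_TTX replicate 1 and Ctrl_TTXwd replicate 3, Pearson's r was 0.221, so the sign of this relation rests on those libraries. The genes shifted alike are thus a small set against a background that, in all 12 libraries, leaned toward opposite signs.

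Among the lower genes, the largest average difference was that of RGD1311558, a locus passed over by the naming rule and chosen after its values were seen. Its transcript accession belongs to Shtn1 in RefSeq, the gene of shootin1, a protein of axon outgrowth. It had 69.3, 50.4 and 58.3 FPKM in KD_TTX, against 167, 115 and 131 FPKM in Ctrl_TTX, and 39.3, 25.7 and 25.7 FPKM in KD_TTXwd, against 53.9, 81.4 and 49.8 FPKM in Ctrl_TTXwd. Knockdown and control libraries were apart in both states, and the log2 difference of -1.10 (SE 0.17) had an adjusted p of 0.0703, which missed the threshold. Pcyox1, which encodes an enzyme that breaks down the prenylated cysteine left from degraded prenylated proteins, had 81.7, 55.9 and 52.7 FPKM in KD_TTX, against 152, 103 and 107 FPKM in Ctrl_TTX. It had 52.5, 36.6 and 40.1 FPKM in KD_TTXwd, against 82.4, 90.7 and 93.1 FPKM in Ctrl_TTXwd. Its difference was -0.98 (SE 0.15), with an adjusted p of 0.0703, and all libraries of both states kept to their side.

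The other lower genes that the rule named did not pass the threshold either, with adjusted p between 0.105 and 0.160. Ube2j1, a ubiquitin-conjugating enzyme of the endoplasmic reticulum, had 42.5, 47.5 and 42.7 FPKM in KD_TTX, against 59.6, 62.5 and 59.7 FPKM in Ctrl_TTX. It had 33.7, 26.9 and 29.5 FPKM in KD_TTXwd, against 47.6, 50.8 and 54.1 FPKM in Ctrl_TTXwd. The spread within each group was small beside the gap, and the averaged difference was -0.59 (SE 0.10). Nkiras1, a Ras-like inhibitor of NF-kappa B signalling, was at 4.03 to 4.44 FPKM in KD_TTX, against 6.06 to 8.58 in Ctrl_TTX, and at 3.81 to 5.05 FPKM in KD_TTXwd, against 6.57 or more in Ctrl_TTXwd. Its differences in TTX (-0.73) and after withdrawal (-0.78) were nearly equal. Ate1, the arginyltransferase that marks proteins for degradation by their amino terminus, differed by -0.68 (SE 0.13) and Cacul1, which holds a cullin domain, by -0.69 (SE 0.14). Acsl1, which activates long-chain fatty acids, differed by -0.70 (SE 0.13). The transmembrane receptor gene Dcbld2 differed by -0.80 (SE 0.16) and the secreted protease gene Adamts18 by -0.62 (SE 0.11). Mtss1, whose protein bends membranes and binds actin, differed by -0.54 (SE 0.10), and Cttnbp2nl, a partner of the phosphatase PP2A, by -0.53 (SE 0.10). Habp4, which encodes a hyaluronan- and RNA-binding protein, differed by -0.64 (SE 0.11). Ctrl_TTX replicate 1 and Ctrl_TTXwd replicate 3 were the highest controls of their states for Dcbld2, Pcyox1, Cacul1 and Cttnbp2nl. In a single state this held for Ube2j1, Habp4, Mtss1 and Ate1, and in neither for Ipo9, Nkiras1, Adamts18 and Acsl1.

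The largest difference among the higher genes was that of Fxyd7, a brain subunit that modulates the sodium-potassium pump. Fxyd7 had 11.4, 8.13 and 8.15 FPKM in KD_TTX, against 2.37, 6.35 and 3.29 FPKM in Ctrl_TTX, and 4.03, 5.93 and 5.41 FPKM in KD_TTXwd, against 2.79, 1.93 and 0.804 FPKM in Ctrl_TTXwd. Its averaged difference was 1.13 (SE 0.22), with 1.10 in TTX and 1.16 after withdrawal, and its adjusted p was 0.156. Slc4a10, a sodium-driven chloride and bicarbonate exchanger of neurons, had 23.2, 22.8 and 21.7 FPKM in KD_TTX, against 15.0, 16.8 and 13.6 FPKM in Ctrl_TTX. It had 39.5, 39.2 and 30.5 FPKM in KD_TTXwd, against 19.8, 23.0 and 9.79 FPKM in Ctrl_TTXwd. The library Ctrl_TTXwd replicate 3 was the lowest control of both genes, and without it and Ctrl_TTX replicate 1 the differences were 0.86 for Fxyd7 and 0.64 for Slc4a10. Ache, acetylcholinesterase, had 8.03, 10.3 and 8.50 FPKM in KD_TTX, against 3.5, 7.32 and 6.17 FPKM in Ctrl_TTX, and 4.56, 8.26 and 6.18 FPKM in KD_TTXwd, against 3.52, 2.42 and 0.914 FPKM in Ctrl_TTXwd. Its difference was 0.92 (SE 0.24), larger after withdrawal (1.21) than in TTX (0.62).

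The smallest p among the higher genes was that of Msrb2. Msrb2, a mitochondrial enzyme that repairs oxidized methionine, had 2.48, 2.31 and 3.32 FPKM in KD_TTX, against 1.16, 1.36 and 1.74 FPKM in Ctrl_TTX. It had 8.09, 9.47 and 8.38 FPKM in KD_TTXwd, against 3.98, 3.96 and 5.69 FPKM in Ctrl_TTXwd. All knockdown libraries lay above the controls of their state, by 0.71 (SE 0.13) with an adjusted p of 0.147. Fn3k, a kinase that removes sugar from glycated proteins, differed by 0.87 (SE 0.19) and Me3, the mitochondrial malic enzyme, by 0.56 (SE 0.14). Wif1, a secreted inhibitor of Wnt ligands, differed by 0.70 (SE 0.15). Pnck, a calcium- and calmodulin-dependent kinase, differed by 0.68 (SE 0.17), and Cntnap4, a neurexin-family adhesion protein, by 0.51 (SE 0.13). Epdr1, an ependymin-related secreted protein, differed by 0.53 (SE 0.12), Ece2, an endothelin-converting protease, by 0.48 (SE 0.13) and Nt5dc3 by 0.44 (SE 0.11). The 12 higher genes named by the rule had adjusted p between 0.147 and 0.448. Ctrl_TTXwd replicate 3 was also the lowest withdrawal control of Ache, Fn3k, Wif1, Pnck, Cntnap4 and Nt5dc3. It was not the lowest for Msrb2, Me3, Epdr1 and Ece2.

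**Figure D3:**
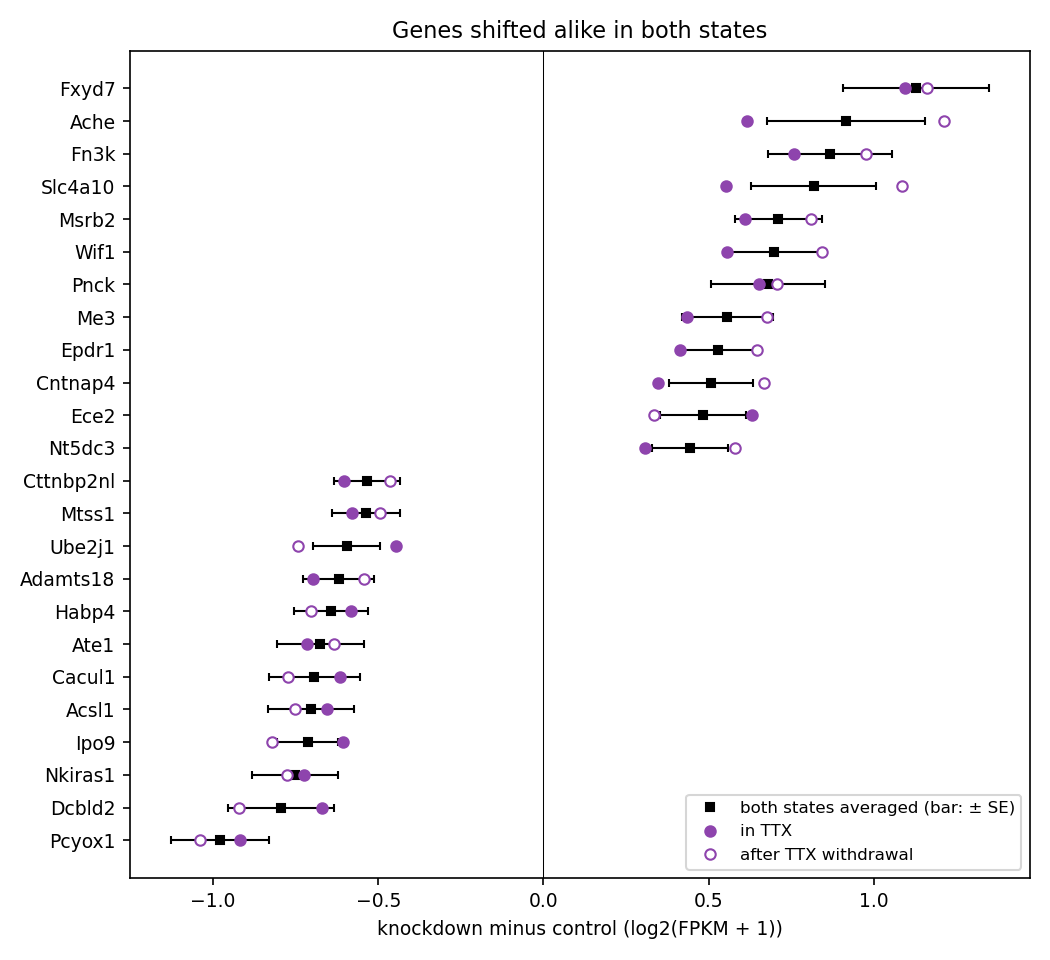
Knockdown minus control in log2(FPKM + 1) for the 24 named genes shifted alike, with the average of both states as a square (bar, SE of the limma fit), the value in TTX as a filled circle and that after withdrawal as an open circle. Lower genes lie between -0.98 (Pcyox1) and -0.53 (Cttnbp2nl) and higher genes between 0.44 (Nt5dc3) and 1.13 (Fxyd7). Ache and Slc4a10 show the widest gap between states.

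Level, locus span and promoter sequence were compared without a test. The level comes from the same FPKM values that the rule used, whereas span and promoter sequence do not. The lower genes had a median level of 19.3 FPKM and the higher ones 10.5 FPKM, beside 19.2 FPKM for all genes. Their loci spanned a median of 32.5 kb for the lower and 27.5 kb for the higher genes, beside 23.8 kb for all, and lay on 19 and 15 chromosomes. Promoters, as 300 bases from 250 before to 50 after the start in RefSeq (build GRCr8), were matched by symbol for 48 lower and 22 higher genes and for 8322 of all tested. The cAMP response element TGACGTCA, the site of CREB-family factors and its own reverse complement, was in 4 of 48 promoters of lower genes (8.33%) and 0 of 22 of higher genes, beside 277 of 8322 (3.33%). It was also in 3 of 39 promoters (7.69%) of genes higher with knockdown in TTX and lower after withdrawal, and in 2 of 74 (2.70%) of the reverse kind. The AP-1 motif TGANTCA, read on both strands, which no cAMP response element contains, was in 1 of 48 and 2 of 22, beside 4.51% of all. The MEF2 motif was in 1 of 48 and 0 of 22, beside 1.18%, and the CArG box in 0 of 48 and 1 of 22, beside 1.14%. These letter matches are a description and not bound sites. The 4 lower genes with the cAMP response element were Habp4, Noc4l, Pcnp and Senp2, with averaged differences of -0.64, -0.40, -0.77 and -0.47. Noc4l serves ribosome assembly and Senp2 removes the SUMO modifier from proteins. The 28 bases around each match are shown with the element in capitals, on the strand of the gene. The 4 were picked for holding the element, so it is common to them by choice, while the bases beside it differ. The element starts 132 bases before the start of Habp4 (chromosome 17, minus strand), 33 before that of Noc4l (chromosome 12, plus strand), 99 before that of Pcnp (chromosome 11, plus strand) and 168 before that of Senp2 (chromosome 11, minus strand).
Habp4 promoter: aagtggggcgTGACGTCAcagacaccgg
Noc4l promoter: gaagcgctggTGACGTCAcgagtgcgac
Pcnp promoter: agcaagccaaTGACGTCActtccgcttc
Senp2 promoter: cggaggaaggTGACGTCAggggcttcta

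Of 31 gene lists covering receptors, channels, activity-induced genes, cell types and stress responses, with 477 different genes tested, no list held a called member and 2 genes were shifted alike, beside 0.851% of all genes. Medians were above 0 in both states for neuropeptides and granins (0.08 in TTX and 0.36 after withdrawal) and activity-induced effectors (0.10 and 0.20). Those of the cytosolic ribosomal protein genes were too, but only 19 of 30 genes had the same sign in both. Their mean log2(FPKM + 1) was 6.35, 6.84 and 7.405 in KD_TTX, against 6.06, 6.62 and 6.77 in Ctrl_TTX. It was 7.18, 7.46 and 7.41 in KD_TTXwd, against 7.10, 7.23 and 7.31 in Ctrl_TTXwd. The groups thus overlapped in both states, and genes of a list are not independent replicates. Of 30 tested, 29 had an averaged difference above 0, 27 in TTX and 22 after withdrawal, with medians of 0.26, 0.35 and 0.18. Without Ctrl_TTX replicate 1 the median in TTX was 0.16, and without Ctrl_TTXwd replicate 3 that after withdrawal was 0.26. The averaged median stayed between 0.12 and 0.34 in the alternative settings. Rpl5, of the large subunit, was shifted alike at 200, 208 and 245 FPKM in KD_TTX, against 154, 174 and 176 FPKM in Ctrl_TTX, and at 233, 284 and 261 FPKM in KD_TTXwd, against 183, 196 and 211 FPKM in Ctrl_TTXwd. Its difference was 0.38 (SE 0.11), with an adjusted p of 0.457. Ribosomal protein genes have many near-identical pseudogene copies, between which the authors' counting could split reads. The other list member shifted alike was Rrm2b of the p53 response list, a ribonucleotide reductase subunit, at 0.49 (SE 0.15, adjusted p 0.529), while 7 of the 18 genes of that list were above 0.

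Microglia and astrocyte markers were mostly below 0, and the oligodendrocyte lineage markers were not, with 4 of 7 below 0 and medians of -0.29 in TTX and 0.29 after withdrawal. All 15 microglia markers were below 0 on average, with a median of -0.52, made up of -0.14 in TTX and -1.06 after withdrawal, and none was called. Fcer1g, an Fc receptor chain of microglia, had 101, 65.1 and 24.0 FPKM in KD_TTX, against 333, 51.0 and 23.7 FPKM in Ctrl_TTX, and 82.1, 11.6 and 101 FPKM in KD_TTXwd, against 93.1, 17.9 and 323 FPKM in Ctrl_TTXwd. The 2 high values were those of Ctrl_TTX replicate 1 and Ctrl_TTXwd replicate 3. Without these libraries the microglia median was 0.35 in TTX and -0.20 after withdrawal. Of 12 astrocyte markers, 11 were below 0 with a median of -0.45, and the medians were -0.18 in TTX and -0.61 after withdrawal, or 0.12 and -0.31 without those libraries. Aldh1l1, a folate enzyme that marks astrocytes, differed by -0.53 (SE 0.18, adjusted p 0.672).

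**Figure D4:**
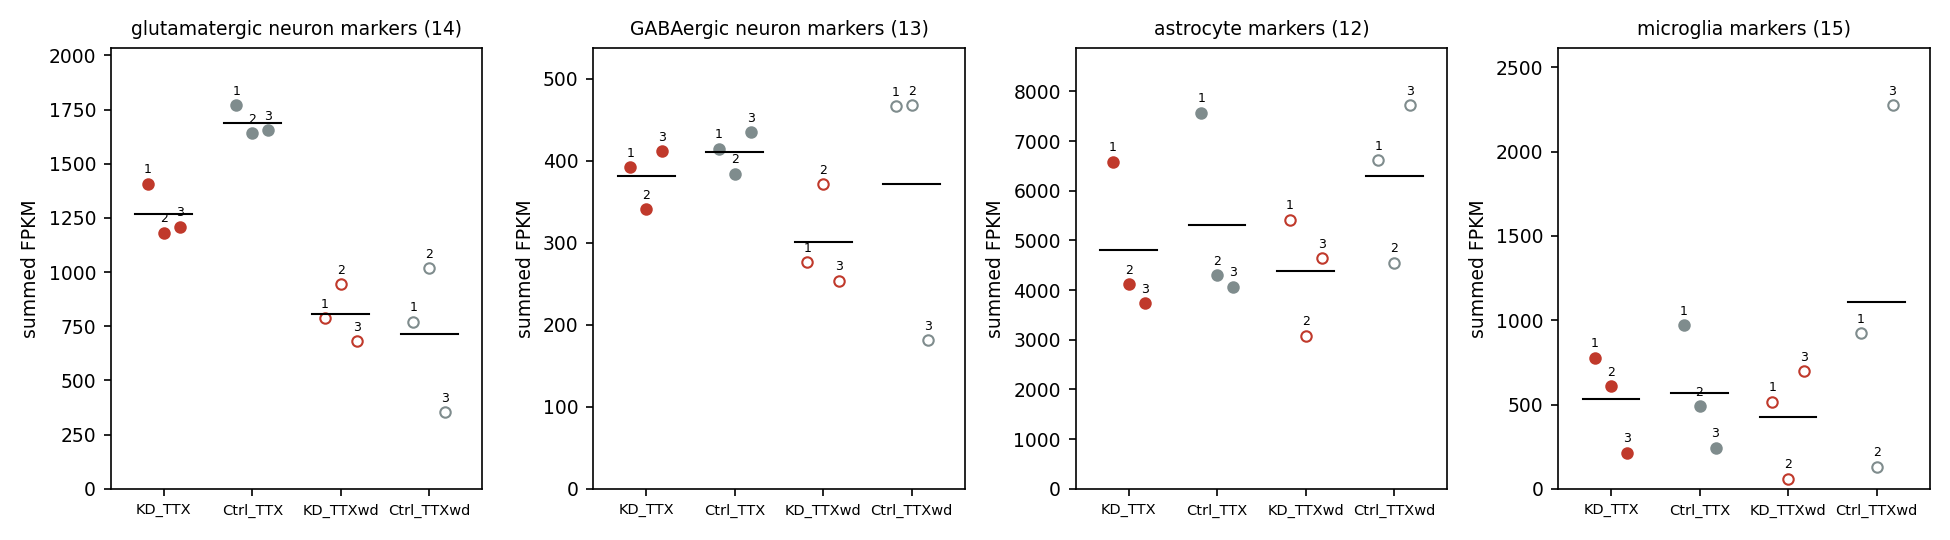
Summed FPKM (linear axes from 0) of the marker lists of glutamatergic neurons, GABAergic neurons, astrocytes and microglia in each library, with colours and symbols as for single genes. Numbers are replicates and lines are group means. The microglia sum reaches 2275 in Ctrl_TTXwd replicate 3 and 59.3 in KD_TTXwd replicate 2.

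In several lists of neuronal receptors and channels the states differed in sign. All 11 GABA-A receptor subunits, which form the chloride channels of fast inhibition, were below 0 in TTX (median -0.32) and all 11 above 0 after withdrawal (0.63). Without the libraries that stand apart, 6 of 11 were below 0 in TTX (median -0.05) and 10 of 11 above 0 after withdrawal (0.37). Voltage-gated calcium channel subunits had medians of -0.12 in TTX and 0.31 after withdrawal, or -0.12 and 0.02 without those libraries. Sodium channels had medians of -0.22 and 0.38, or -0.03 and 0.22, and axon guidance genes -0.12 and 0.26, or -0.13 and 0.12.

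Among the other NMDA receptor subunits, averaged differences ranged from -0.20 for Grin1 to 0.34 for Grin2a, and none passed (adjusted p 0.991 to 0.993). Grin2a, which encodes GluN2A, the subunit that replaces GluN2B as synapses mature, had 6.67, 6.90 and 4.39 FPKM in KD_TTX, against 6.97, 7.31 and 8.50 FPKM in Ctrl_TTX. It had 6.43, 4.50 and 5.74 FPKM in KD_TTXwd, against 2.87, 2.92 and 1.32 FPKM in Ctrl_TTXwd. The groups were apart in both states but in opposite directions, -0.32 and 0.99. Homer1, a scaffold of the postsynaptic density, did the same at -0.23 and 0.50. Grin2b differed by 0.09 (SE 0.23), Grin2c by 0.24 (SE 0.17) and Grin2d by 0.26 (SE 0.19). Among activity-induced genes, Fos, an immediate-early transcription factor, had an averaged difference of 0.29 (SE 0.26), Arc, a synaptic immediate-early gene, of -0.11 (SE 0.25), and Bdnf, a neurotrophin, of 0.45 (SE 0.23), with adjusted p from 0.890 to 0.993. Git1, whose protein binds GluN3A, differed by -0.13 (SE 0.20) and Mtor by 0.11 (SE 0.11). Arc differed by 0.43 in TTX and by -0.65 after withdrawal, so its average hides opposite signs. The activity-induced transcription factors had a median of -0.05 over 21 genes, made up of 0.15 in TTX and -0.14 after withdrawal, and the activity-induced effectors of 0.12 over 23. Of the genes always named, Npas4, Nr4a1 and Mef2c were not analysed.

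**Figure D5:**
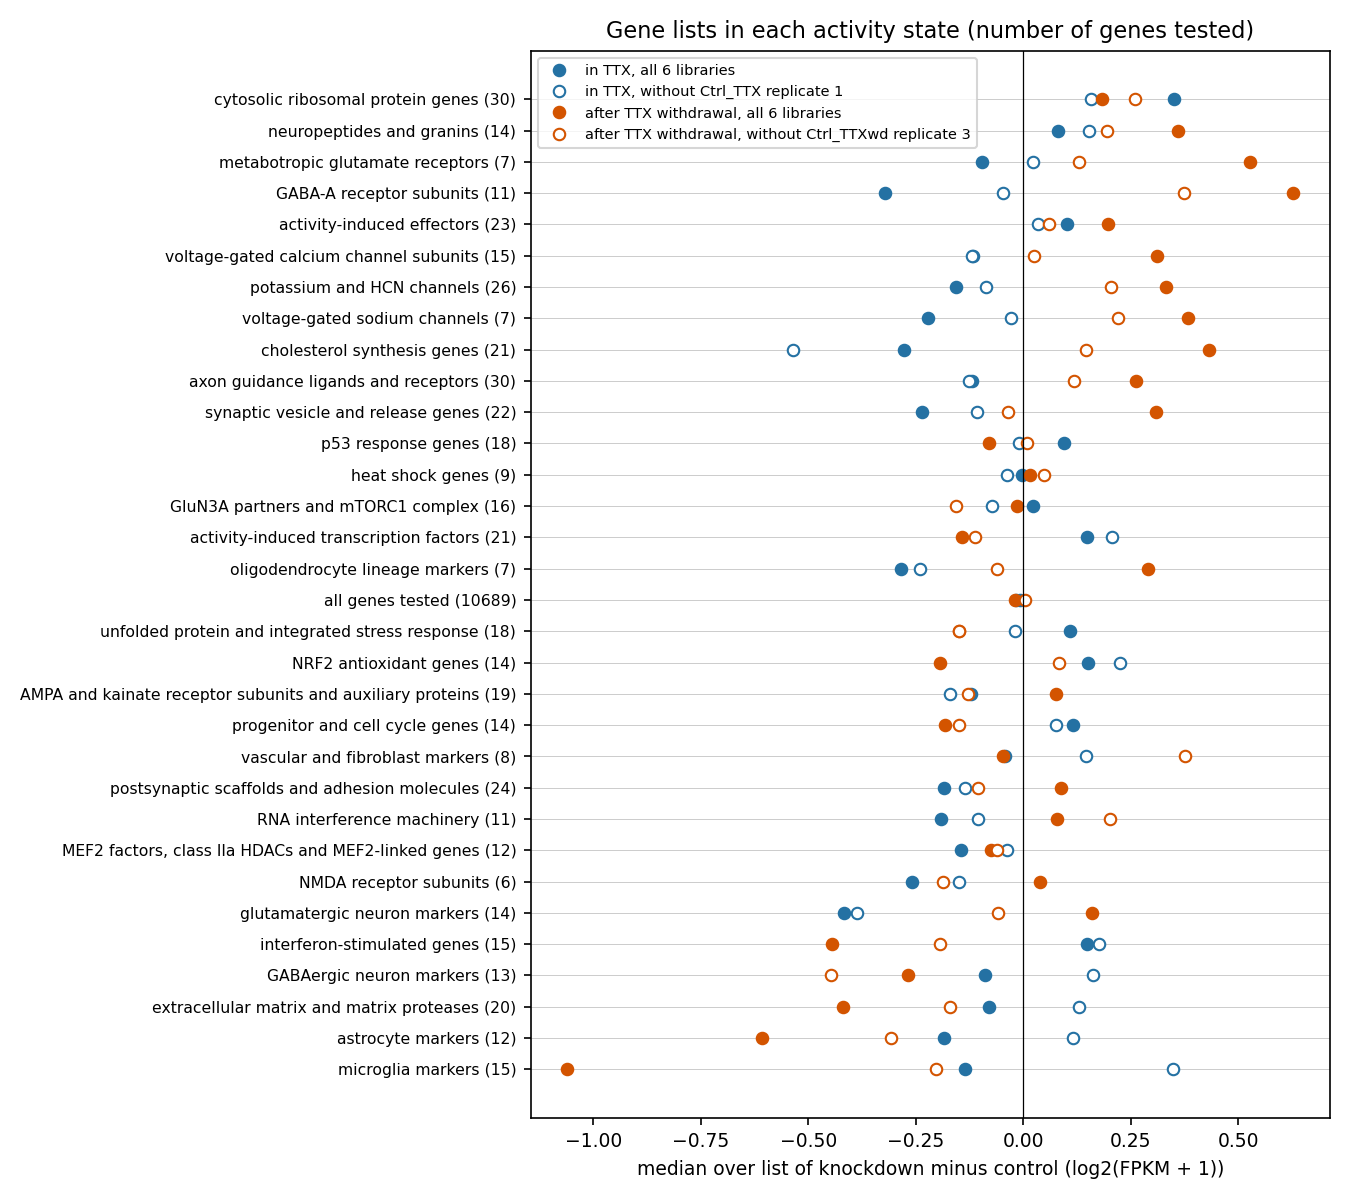
Median knockdown minus control, in log2(FPKM + 1), over the tested members of each gene list, in TTX (blue) and after withdrawal (orange), ordered by the average of both. Filled circles use all 6 libraries of a state and open circles leave out Ctrl_TTX replicate 1 or Ctrl_TTXwd replicate 3. Ribosomal protein genes, neuropeptides and granins, and activity-induced effectors are above 0 in all 4 values. GABA-A receptor subunits change sides between the states.

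The authors' deposited table marks more genes than limma on the library values. Its q-value was below 0.05 for 231 genes in TTX (2.16%) and 813 after withdrawal (7.61%), with 30 marked in both (0.281%), which is 12.99% of the first list and 3.69% of the second. Of those 30, the authors' deposited table gives 18 the same direction in both states, 14 lower and 4 higher with knockdown, and 12 opposite directions. The 14 lower were Grin3a, RGD1311558, Pcyox1, Nkiras1, Ate1, Acsl1, Ube2l3, Crmp1, Pgam1, Serpini1, Dusp18, Rnf44, Fcer1g and Cd53, and the 4 higher Fxyd7, Slc6a7, Plcl1 and Fbln5. In TTX, Ctrl_TTX replicate 1 was the highest control of Serpini1 (116 FPKM), Dusp18 (141 FPKM), Rnf44 (101 FPKM) and Cd53 (64.8 FPKM). It was also the highest for RGD1311558, Pcyox1, Ate1, Ube2l3 and Fcer1g, and not for Grin3a, Nkiras1, Acsl1, Crmp1 and Pgam1. In the authors' deposited table the log2 fold change of RGD1311558 was -1.21 in TTX and -1.03 after withdrawal, and that of Grin3a was -1.58 and -1.80. Of the 18 genes 7 were shifted alike by the rule above, while 64 of the 91 genes shifted alike were marked in neither state.
Crmp1, which relays semaphorin signals to the growth cone, had 390, 361 and 398 FPKM in KD_TTX, against 568, 698 and 744 FPKM in Ctrl_TTX, and 195, 244 and 151 FPKM in KD_TTXwd, against 479, 739 and 173 FPKM in Ctrl_TTXwd. It was not counted as shifted alike, since Ctrl_TTXwd replicate 3 lay inside the knockdown range. Pgam1, a glycolytic enzyme, had 58.8, 67.1 and 71.1 FPKM in KD_TTX, against 54.8, 138 and 133 FPKM in Ctrl_TTX, and 43.6, 25.4 and 37.6 FPKM in KD_TTXwd, against 99.2, 97.3 and 118 FPKM in Ctrl_TTXwd. Only Ctrl_TTX replicate 1 kept Pgam1 from being apart in both states. Slc6a7, the brain proline transporter, had 8.48, 7.13 and 8.29 FPKM in KD_TTX, against 2.26, 5.69 and 5.19 FPKM in Ctrl_TTX. It had 7.87, 13.1 and 6.24 FPKM in KD_TTXwd, against 3.65, 3.73 and 0.434 FPKM in Ctrl_TTXwd, with an averaged difference of 1.21 (SE 0.32), the highest of all genes tested. The lowest controls of Slc6a7 were Ctrl_TTX replicate 1 and Ctrl_TTXwd replicate 3. Limma on all libraries gave adjusted p of 0.603 for Crmp1, 0.287 for Pgam1 and 0.431 for Slc6a7, and called none of them. The genes taken from the authors' calls were chosen after their values were seen.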

How the data were processed

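Stranded mRNA libraries with 50 bp single-end reads were made, per the labels' protocols. The submitters' processing notes name Trimmomatic, TopHat2, Cufflinks, Cuffdiff and build rn5. The deposited table holds the authors' FPKM per library, their log2 fold changes and the authors' q-value (an adjusted p-value), per the file headers. Of 10730 genes, 18 with symbols turned into dates were resolved by accession, and 1 was left out because its library mean and the authors' group value differed by more than 1%. No gene lies below 1.00 FPKM in Ctrl_TTX replicate 1, which looks like a selection of genes by that library.

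Testing took the 10689 genes with at least 1 FPKM in at least 3 libraries and left 40 out. On R 4.3.3, limma 3.58.1 (eBayes with trend) was fitted to log2(FPKM + 1) with activity state as an additive factor, without a replicate block. State contrasts and their difference came from a fit with 1 coefficient per group. Tests are two-sided, with a Benjamini-Hochberg adjusted p below 0.05 as threshold. The procedure was checked on simulated data. Named genes were the NMDA receptor subunits, 12 genes shifted alike per direction (called genes first, then by p, in which some group averages 2 FPKM or more), up to 3 members per list, a fixed set of activity genes and the 5 genes with the smallest p for the difference between states. Genes and lists were chosen with earlier results of these data known. Scripts ran in Python 3.11.15 with matplotlib 3.10.9. Depth is unknown.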

Additional observations from a re-analysis of the deposited data

Results flagged for a closer look

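Genes whose knockdown difference had opposite signs in the 2 states, with no overlap of the groups in either, were set apart for a closer look. There were 101 genes lower with knockdown in TTX and higher with knockdown after withdrawal, and 47 genes of the reverse kind. The difference between states was tested gene by gene with limma, which called 0 of 10689 genes, with 1050 (9.82%) at an unadjusted p below 0.05. The first kind included Bmi1, a Polycomb protein (-0.48 and 0.38), and Grin2a. Bmi1 had 50.3, 49.1 and 50.9 FPKM in KD_TTX, against 67.1, 69.7 and 74.6 FPKM in Ctrl_TTX, and 59.2, 65.8 and 51.7 FPKM in KD_TTXwd, against 43.6, 51.6 and 39.9 FPKM in Ctrl_TTXwd. The reverse kind included Jun, an AP-1 transcription factor, with 97.7, 112 and 104 FPKM in KD_TTX, against 94.6, 78.5 and 62.1 FPKM in Ctrl_TTX, and 35.8, 38.6 and 33.9 FPKM in KD_TTXwd, against 82.5, 54.0 and 44.0 FPKM in Ctrl_TTXwd. The smallest p values for the difference were those of Snapc2, Prkx, Hivep2, Prkaa2 and Ddit4l, each with an adjusted p of 0.492. Snapc2 encodes a subunit of a complex that binds the promoters of small nuclear RNA genes. Snapc2 had 39.5, 37.2 and 37.0 FPKM in KD_TTX, against 22.6, 29.9 and 27.9 FPKM in Ctrl_TTX. It had 22.0, 30.4 and 32.4 FPKM in KD_TTXwd, against 50.3, 42.4 and 43.8 FPKM in Ctrl_TTXwd. The 101 genes spanned a median of 64.9 kb and the 47 genes 10.9 kb, beside 23.8 kb for all genes tested, and the part of locus length in the pattern was not tested. These genes, other than the 5 with the smallest p and Grin2a, were chosen after their values were seen.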

How the results depend on the processing

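The averaged comparison called 1 gene, Ipo9, also with a pseudocount of 0.1, without a filter and with a mean of at least 5 FPKM. It called 0 genes with median-ratio rescaling, quantile normalization, the robust variance model, the replicate block and the replicate block within state, and 2, Ipo9 and Rhob, with 1 coefficient per group. Adjusted p of Ipo9 was 0.0513 after median-ratio rescaling, 0.0755 after quantile normalization, 0.0954 with the replicate block and 0.105 with the block within state. Over 17 settings that leave out libraries, the averaged calls ranged from 0 to 122 and those after withdrawal from 0 to 527, with 0 in TTX and 0 for the difference between states. The 17 calls without Ctrl_TTX replicate 1 were all lower, and the 3 without KD_TTX replicate 1 were 2 lower and 1 higher. Calls after withdrawal were 0 with quantile normalization, with the replicate block and with the 6 libraries compared alone, and 90 with the block within state. Genes shifted alike ranged from 103 to 710 and opposite ones from 152 to 981, since fewer libraries overlap less. List members called ranged from 0 to 4, and the 4, called without Ctrl_TTX replicate 1 and Ctrl_TTXwd replicate 3, were Aldh1l1, Cacng3, Grin3a and Slc17a7. Of the 122 genes called in that setting, added after the data were seen, 27 are among the 91 shifted alike. Grin3a kept its direction in all 26 alternatives, from -1.74 to -1.25 without libraries, with adjusted p from 0.0147 to 0.9996. Same-numbered knockdown and control libraries correlated in their deviations at 0.617, 0.436 and 0.667 in TTX, each best with its own number, and at -0.331, 0.875 and 0.563 after withdrawal, where replicate 1 was the exception. The numbers thus appear to pair the libraries in TTX, as a hint from the data and not the labels, and not in both states.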
